A study of Caenorhabditis elegans with 2 samples.

Results

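Peaks whose summits lay between or beside 2 protein-coding genes transcribed away from each other were examined in ChIP-seq of Caenorhabditis elegans. A summit counted when it fell from 1000 bp upstream to 200 bp downstream of the 5' end of at least 1 protein-coding gene on the plus strand and of at least 1 on the minus strand, and not within 100 bp of a tRNA gene. Of the 2228 peaks in the authors' pooled thresholded list, 281 met this rule (12.6%, exact 95% interval 11.3 to 14.1). They are called members here. A further 646 peaks had a summit in such windows on 1 strand only and are called one-sided, 298 lay within 100 bp of a tRNA gene, and 1003 were elsewhere. Of those 298 peaks near tRNA genes, 6 had windows on both strands and are not members.

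All samples came from strain RW12291, in which CRISPR had inserted TY1, EGFP and 3xFLAG sequences at Y48G9A.11 (allele st12291, on chromosome III). The animals were L4 larvae at 47.5 hours, synchronised by bleaching and starvation at the first larval stage, and DNA bound to the fusion protein was recovered with an antibody against GFP. There was 1 group of 2 biological replicates and no sample without the tag was analysed here. Recovery of DNA by this protein and recovery that any such precipitation would give at promoters therefore cannot be told apart. Whole animals were used, so no signal can be placed in a tissue.

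A divergent pair consists of 2 neighbouring genes whose 5' ends face each other across a short interval, so that 1 stretch of DNA can serve as the promoter region of both. Such pairs are frequent in compact genomes like that of C. elegans and often hold genes used in most cells. In worms the annotated 5' end of a gene is often that of a trans-spliced transcript, where a short leader has replaced the original start, so transcription can begin upstream of the annotated end. A ChIP-seq peak marks a stretch of chromatin enriched in the precipitate, and its summit is the position the caller gives as that of highest enrichment. In 187 of 281 members (66.5%) the summit was the midpoint of a peak of the fixed width of 324 bp, and distances and sequence windows there are taken from that midpoint. These were all 70 members in each of the 2 weakest of 4 groups by signal, 47 of the 70 next and none of the 71 strongest. The signal value is the peak caller's own number per peak, relative to a control, on a scale the sources used here do not state.

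The sequences at the strongest summits carry a shared stretch. The 8 strongest members on chromosomes II to V whose printed bases overlap no annotated exon are shown first, since the strongest peaks are where the pattern was most frequent. Each is written 5' to 3' on the plus strand of ce11 with the summit as its middle base, read from the RefSeq sequence of WBcel235, whose chromosome names and lengths match ce11. Capitals mark the 10-letter pattern ACGANNCTCC or its reverse complement GGAGNNTCGT, where N is any base.
F58G1.2/wago-4, chrII:12919303-12919403: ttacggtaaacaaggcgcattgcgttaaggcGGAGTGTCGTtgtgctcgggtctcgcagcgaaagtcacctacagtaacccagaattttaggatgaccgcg
rpb-12/aly-2, chrIV:9147123-9147223: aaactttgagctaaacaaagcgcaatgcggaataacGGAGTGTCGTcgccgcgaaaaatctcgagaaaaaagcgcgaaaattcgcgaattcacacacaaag
T23F6.3/rbd-1, chrIV:12724791-12724891: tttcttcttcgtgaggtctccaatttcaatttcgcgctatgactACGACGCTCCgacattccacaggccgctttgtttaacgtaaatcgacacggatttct
cic-1/strm-1, chrIII:2401284-2401384: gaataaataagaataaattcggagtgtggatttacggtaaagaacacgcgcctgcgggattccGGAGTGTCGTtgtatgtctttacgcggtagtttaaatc
Y39B6A.3/pph-5, chrV:19190209-19190309: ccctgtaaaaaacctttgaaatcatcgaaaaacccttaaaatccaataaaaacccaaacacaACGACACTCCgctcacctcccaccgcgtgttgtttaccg
rpl-28/mrpl-49, chrV:12728406-12728506: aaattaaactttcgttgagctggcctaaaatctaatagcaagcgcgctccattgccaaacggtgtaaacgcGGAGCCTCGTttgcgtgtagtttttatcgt
ddx-46/F53H1.4, chrIV:1309960-1310060: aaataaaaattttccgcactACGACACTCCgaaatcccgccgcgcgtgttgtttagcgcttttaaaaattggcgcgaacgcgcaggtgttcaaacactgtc
farl-11/rpl-33, chrII:7105119-7105219: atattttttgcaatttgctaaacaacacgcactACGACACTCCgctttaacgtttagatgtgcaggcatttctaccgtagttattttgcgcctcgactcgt
All 8 hold the pattern. It was built from counts of 10-letter words within 50 bp of the members' summits, with words of little variety left out. The commonest word was ACGACACTCC, and the commonest among members without it was ACGATGCTCC. N was written where these 2 words differ. The frequency of the pattern at members is therefore a description of how it was chosen and not a test.

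Aligned on the pattern, the neighbouring bases were also partly shared. The 10 strongest members on chromosomes II to V that hold the pattern outside annotated exons are written on the strand that reads ACGANNCTCC, with 14 bases before it and 16 after it. The strand is plus for R04F11.5/R04F11.2, T23F6.3/rbd-1, Y39B6A.3/pph-5, F10E9.7/F10E9.5, ddx-46/F53H1.4 and farl-11/rpl-33 and minus for the others. Capitals again mark the pattern.
F58G1.2/wago-4, chrII:12919318-12919357: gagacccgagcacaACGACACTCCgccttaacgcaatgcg
rpb-12/aly-2, chrIV:9147143-9147182: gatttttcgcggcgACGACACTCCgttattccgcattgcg
R04F11.5/R04F11.2, chrV:12318287-12318326: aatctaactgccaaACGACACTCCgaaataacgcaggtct
T23F6.3/rbd-1, chrIV:12724821-12724860: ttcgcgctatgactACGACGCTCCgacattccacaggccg
cic-1/strm-1, chrIII:2401331-2401370: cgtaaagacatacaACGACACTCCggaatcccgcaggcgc
Y39B6A.3/pph-5, chrV:19190257-19190296: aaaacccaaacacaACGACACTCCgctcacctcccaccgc
rpl-28/mrpl-49, chrV:12728461-12728500: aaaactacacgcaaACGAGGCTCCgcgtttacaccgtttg
F10E9.7/F10E9.5, chrIII:8307511-8307550: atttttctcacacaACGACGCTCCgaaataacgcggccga
ddx-46/F53H1.4, chrIV:1309966-1310005: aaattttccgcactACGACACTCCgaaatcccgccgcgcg
farl-11/rpl-33, chrII:7105138-7105177: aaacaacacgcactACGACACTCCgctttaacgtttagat
Over all 65 members with the pattern, counting the first base of the pattern as position 1, 5 of the 30 neighbouring positions had 1 base in at least 70% of members. These were G at position 11 (89.2%), A at position 14 (78.5%), T at position 15 (90.8%), C at position 18 (87.7%) and G at position 19 (72.3%). At the other neighbouring positions the commonest base was found in 30.8% to 67.7% of members.

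Within the stretch searched, the pattern lay in either orientation. Its centre was a median of 16.5 bp from the summit, within 20 bp in 39 of 68 occurrences, where 50 bp was the limit of the search. That limit sets these distances in part, and the distances that random placement would give were not computed. The forward form read on the plus strand in 35 members and on the minus strand in 30, and it read on the strand of the gene with the nearer 5' end in 39 of 65. Both orientations and both genes of the pair were thus represented. The 7 forms of the pattern were led by ACGACACTCC in 39 members (median signal 509.5) and ACGATGCTCC in 12 (median 388), and ACGACGCTCC was present in 5.

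The 3 whole intervals between facing 5' ends that follow, taken from the strongest members with an interval of at most 300 bases outside annotated exons, show where the pattern sits relative to both genes. Each starts at the base next to the 5' end of the minus-strand gene, named first, and ends at the base before the 5' end of the plus-strand gene.
T23F6.3/rbd-1, chrIV:12724761-12724985: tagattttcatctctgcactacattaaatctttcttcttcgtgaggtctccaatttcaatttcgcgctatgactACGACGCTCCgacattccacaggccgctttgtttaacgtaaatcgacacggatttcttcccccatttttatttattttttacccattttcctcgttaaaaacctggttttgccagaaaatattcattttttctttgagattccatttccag
F10E9.7/F10E9.5, chrIII:8307442-8307591: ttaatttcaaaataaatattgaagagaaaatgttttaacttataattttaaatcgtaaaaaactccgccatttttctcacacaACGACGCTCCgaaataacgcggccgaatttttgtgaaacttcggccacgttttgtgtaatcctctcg
dnj-22/natc-1, chrV:8462121-8462358: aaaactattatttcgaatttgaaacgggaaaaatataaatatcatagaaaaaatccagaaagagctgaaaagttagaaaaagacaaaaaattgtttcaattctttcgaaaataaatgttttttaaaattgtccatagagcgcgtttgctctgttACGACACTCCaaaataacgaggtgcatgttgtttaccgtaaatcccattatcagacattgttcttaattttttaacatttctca
T23F6.3/rbd-1 has 225 bases with a G+C content of 37.3%, F10E9.7/F10E9.5 has 150 bases with 34.0% and dnj-22/natc-1 has 238 bases with 28.6%. The summits were at bases 81, 110 and 158 of these stretches. The first and the last fall within the capitals, and that of F10E9.7/F10E9.5 is 21.5 bp from their centre. The product of rbd-1 is an RNA-binding protein of ribosome biogenesis, dnj-22 encodes a DnaJ-domain chaperone homologue and natc-1 a subunit of an N-terminal acetyltransferase. T23F6.3/rbd-1 had a signal of 1306 in the pooled list, 674 in replicate 1 and 607 in replicate 2. F10E9.7/F10E9.5 had a signal of 986 in the pooled list, 500.6 in replicate 1 and 475 in replicate 2. The interval of dnj-22/natc-1 had a signal of 818 in the pooled list, 409 in replicate 1 and 399.7 in replicate 2.

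Frequency of the pattern followed signal. It was within 50 bp of the summit in 65 of 281 members (23.1%, exact 95% interval 18.3 to 28.5), in 69 of 646 one-sided peaks (10.7%, 8.41 to 13.3) and in 49 of 1003 other peaks (4.89%, 3.64 to 6.41). With members divided into 4 groups by signal, it was present in 46 of the 71 strongest (64.8%) and in 10, 7 and 2 of the 70 in each weaker group. Of the 25 strongest members, 22 held it, and the exceptions were klp-15/ctnb-1, K09H11.9/rga-3 and cox-16/syp-2. Among the 25 strongest one-sided peaks 19 held it, and among the 25 strongest other peaks 17, so the pattern was not limited to divergent intervals.

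Members with the pattern had a median signal of 463.5 and members without it 149, and the medians were 246 and 74.5 in replicate 1 and 220.4 and 84.2 in replicate 2. Among one-sided peaks the medians with and without it were 451 and 131. Both replicates' own lists held 58 of the 65 members with the pattern (89.2%) and 48.1% of the others. At unlisted divergent candidates, at flanks and at the middles of divergent intervals the pattern was rare. It was at 5 of 1789 candidate peaks of divergent windows that did not reach the thresholded list (0.279%), whose signals were 16.3 to 77.3, at 1 of 281 flanks of members, and at the middle of 33 of 2967 divergent intervals of at least 100 bp (1.11%). Of 70 candidates in divergent windows with the pattern, 65 were in the thresholded list.

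Since the pattern was chosen at members and divergent windows hold 4.04 times as many listed peaks per Mb as one-sided windows, the counts of its occurrences near peaks are a description only. The pattern occurred 2269 times on the nuclear chromosomes, 137 of them in divergent windows, and 69 of those 137 were within 50 bp of a listed summit (50.4%, 41.7 to 59.0). In one-sided windows 72 of 457 were (15.8%, 12.5 to 19.4), and elsewhere 52 of 1673 (3.11%, 2.33 to 4.06). For the single word ACGACACTCC the counts were 41 of 69 in divergent windows, 30 of 109 in one-sided windows and 26 of 268 elsewhere. On chromosome X none of the 4 occurrences in divergent windows lay at a listed summit.

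Summits were richer in G and C than the DNA beside them. Mean G+C content in the 100 bp around the summit was 45.9% at members, against 35.6% in their flanks (100 bp at 250 to 350 bp from the summit), 39.5% at divergent candidates outside the list and 34.9% at the middles of all divergent intervals. One-sided peaks had 44.9% and other peaks 45.6%, so the excess was also present at listed peaks outside divergent windows. At members G+C was highest in the 20 bp bins next to the summit (49.4% and 47.9%) and lowest about 130 bp to either side (30.8% and 30.2%), below the 33.5% and 33.8% of one-sided peaks there. The 4 groups of members by signal had 44.2%, 47.9%, 46.4% and 45.1%, from strongest to weakest.

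**Figure D1:**
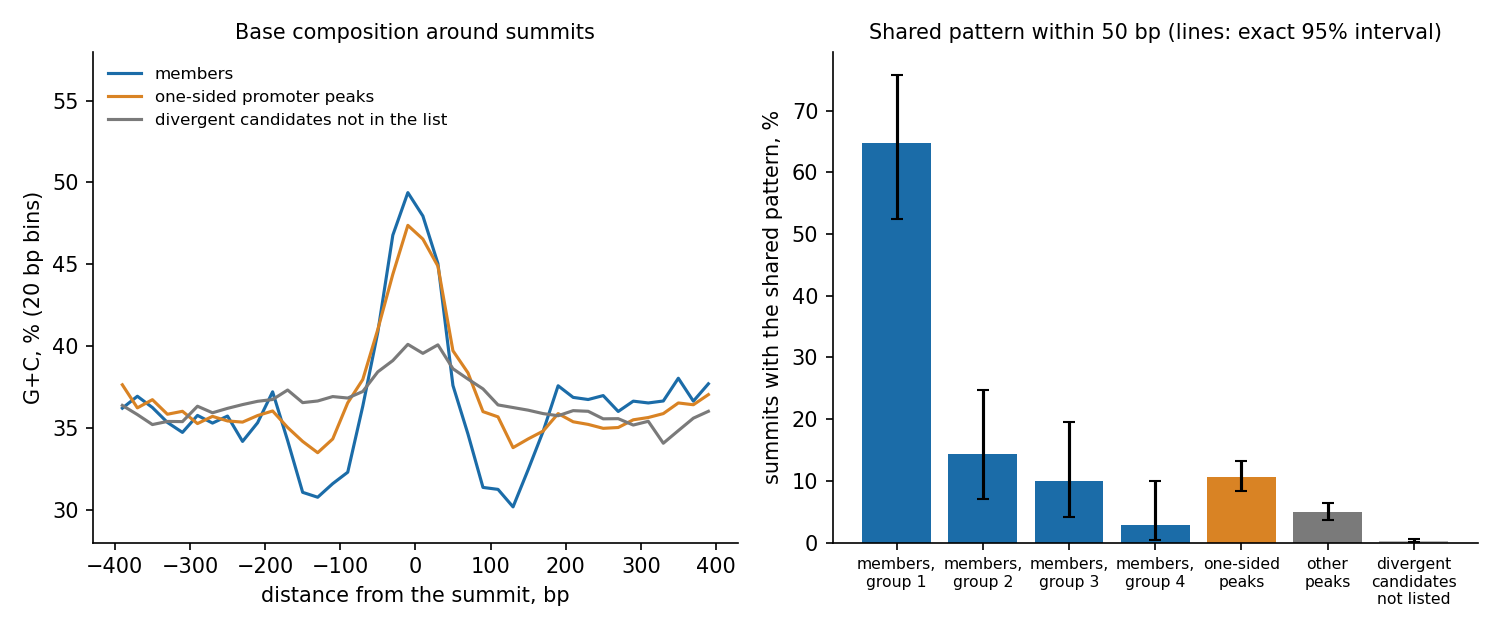
Left, mean G+C content in 20 bp bins against distance from the summit for members, one-sided promoter peaks and candidate peaks of divergent windows outside the thresholded list. Right, share of summits with the 10-letter pattern within 50 bp, with exact 95% intervals as lines, for members in 4 groups by signal (1 is the strongest, 64.8%), one-sided peaks (10.7%), other peaks (4.89%) and unlisted divergent candidates (0.279%); the share is highest in the strongest group of members.

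Of 13 motifs searched on both strands within 50 bp, those rich in C and G were more frequent at members than in their flanks. CGCGCG was at 33 members (11.7%) and 1 flank, at 2.01% of unlisted divergent candidates, at 1.75% of the middles of divergent intervals and at 9.44% of one-sided peaks. GCGCGAA, the letters of an E2F-like site, was at 22 members (7.83%) and no flank, and CCGCCC, Sp1-like letters, at 19 members (6.76%) and 3 flanks. At the middles of all divergent intervals these were at 1.04% and 2.56%, and at one-sided peaks at 6.66% and 4.33%. GAGAGA was at 31 members (11.0%) and 14 flanks, at 6.57% of the middles and at 9.75% of one-sided peaks. CGCGCG and GCGCGAA share letters and can overlap.

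AT-rich letters and the splice acceptor were at fewer members than flanks in windows of 100 bp. TTTCAG, the letters of the C. elegans splice acceptor, was at 30 members (10.7%) and 84 flanks (29.9%), and at 17.8% of the middles. One-sided peaks had TTTCAG at 12.7% and other peaks at 11.1%, so its low share was not particular to members. In the longer window of 200 bp around the summit TTTCAG was at 25.6% of members. GATAA was at 54 members and 87 flanks, TTTTTT at 75 and 94, and the TATA box letters TATAAA at 11 and 19, with 23.9%, 44.3% and 13.0% of the middles. At one-sided peaks these were at 14.9%, 28.2% and 4.33%, beside 19.2%, 26.7% and 3.91% of members. CCAAT was at 44 members and 50 flanks (17.3% of the middles). The remaining sites were at 7 members or fewer. CACGTG was at 7 members and 3 flanks (1.92% of the middles), and GTTCGANNC, the core letters of the B box of tRNA genes, at 2 and 3 (0.573%). TGACTCA was at 1 member and no flank (0.539%), and TGACGTCA at no member and no flank (0.741%). A match is a description of letters only, and letters absent from 100 bp say nothing of the factor.

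Among all 6-letter words, taken with their reverse complements, the 10 that most exceeded the flanks were led by ACACTC (66 members, 23.5%, against 11 flanks, 3.91%) and ACCGTA (61 members, 21.7%, against 8 flanks). TAAACA was at 64 members and 21 flanks, ACGCGC at 53 and 2, ACTCCG at 52 and 6, CACTCC at 51 and 3 and CGACAC at 50 and 7. The last 3 of the 10, CGCGCA at 47 members, AGTGTC at 46 and GCGCAC at 43, were at 3, 4 and 1 flanks. Several of these words, such as ACACTC (3.52% of unlisted candidates), are parts of ACGACACTCC, so the counts overlap. ACACTC was at 3.47% of the middles of divergent intervals and at 9.60% of one-sided peaks, and ACCGTA at 4.15% and 10.7%.

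Members were stronger than other promoter peaks in the pooled list and in each replicate. The median signal was 175 at members, 137 at one-sided peaks and 117 at other peaks. With each peak's value taken from the replicates' ranked lists, the medians were 87.9, 68.0 and 58 in replicate 1 and 96.4, 74.1 and 63.7 in replicate 2, in the same order. The middle 50% of members ran from 126 to 309 and that of one-sided peaks from 107 to 211, so the ranges overlap widely. Of the 25 strongest peaks in the whole list 13 were members, and of the strongest 10% (222 peaks) 68 were.

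The ratio of medians, members to one-sided peaks, was 1.28 in the pooled list, 1.11 in the thresholded list of replicate 1 and 1.25 in that of replicate 2. With 1 group of 2 replicates no test of this difference can be made. Among peaks present in both replicates' lists the ratio was 1.07, and with all peaks that hold the 10-letter pattern left out it was 1.14. So the difference was smaller where both replicates had listed a peak.

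**Figure D2:**
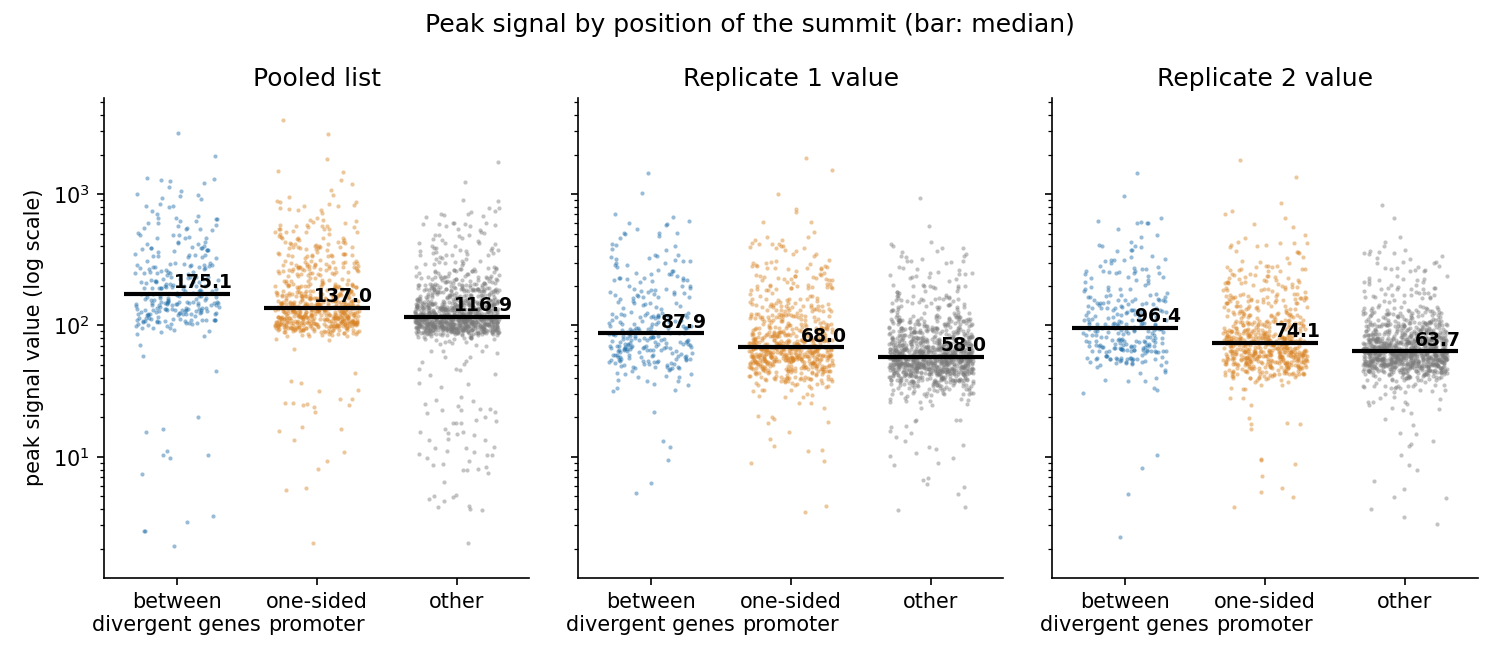
Signal value of each peak on a log scale for members (between divergent genes), one-sided promoter peaks and other peaks, in the pooled list and as taken from each replicate's ranked list; each point is a peak and black bars are medians. The medians of members are the highest in all 3 panels (175, 87.9 and 96.4), and the clouds overlap.

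Candidates in divergent windows reached the thresholded list more often than those in one-sided windows or elsewhere, and less often than those near tRNA genes. The pooled ranked list held 93610 candidate peaks on the nuclear chromosomes, of which 2.38% were in the thresholded list. In divergent windows 281 of 2070 candidates were (13.6%, exact 95% interval 12.1 to 15.1), in one-sided windows 646 of 17182 (3.76%, 3.48 to 4.06) and elsewhere 1003 of 73904 (1.36%, 1.28 to 1.44). Candidates within 100 bp of a tRNA gene, counted apart from these, were listed in 298 of 454 cases (65.6%). Per length of DNA there were 134.5 members per Mb of divergent window, 33.3 peaks per Mb of one-sided window and 12.8 per Mb elsewhere. The density of all candidates was nearly level, at 991, 886 and 940.0 per Mb.

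No member lay on chromosome X. Chromosome III had 63 members in 0.324 Mb of divergent window (195 per Mb), I had 66 (184 per Mb), II had 50 (134 per Mb), IV had 41 (112 per Mb) and V had 61 (111 per Mb). X had 0.116 Mb of divergent window with 88 candidates, the strongest of them with a signal of 83.1, and 0 of 88, taken as at most 3 counts, allows a share of up to 3.41%. Of autosomal divergent candidates 14.2% were listed. The X chromosome was not empty of peaks, with 18 one-sided peaks, 75 other peaks and 131 at tRNA genes. Of those 131, 1 lay in windows of both strands and was left out by the tRNA part of the rule. One-sided windows of X had 6.02 peaks per Mb, against 38.3 on the autosomes.

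The replicates listed the same strong members, and members more often than other peaks. Both replicates' own thresholded lists overlapped 162 of 281 members (57.7%, exact 95% interval 51.6 to 63.5), 41.2% of one-sided peaks (37.4 to 45.1) and 27.6% of other peaks (24.9 to 30.5). Replicate 1 alone listed 43 members, replicate 2 alone 31 and neither 45. By signal, 70 of the 71 strongest members were in both lists, then 64, 25 and 3 of the 70 in each weaker group. The pooled list was made from the same 2 samples, so these shares are not independent of it.

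Summits and signals of members in both lists were close between replicates. The 2 summits were a median of 10 bp apart and at most 94 bp, and within 50 bp in 157 of 162. The ratio of replicate 1 to replicate 2 had a median of 0.991 and was within 1.5-fold in 151 of 162. The highest ratios were at cogc-6/air-1 (signals of 183 and 88.0 in replicates 1 and 2, ratio 2.08), Y71G12A.4/trpp-10 (148 and 84.0, 1.76) and plc-4/R05G6.4 (213 and 127, 1.68). Of these, air-1 encodes an Aurora kinase of the mitotic spindle and plc-4 a phospholipase C. The lowest were at C14B9.8/mrpl-18 (65.5 and 115.7, 0.566), ciao-1/clec-104 (71.7 and 123, 0.583) and wve-1/R06C1.4 (95.9 and 154, 0.622).

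**Figure D3:**
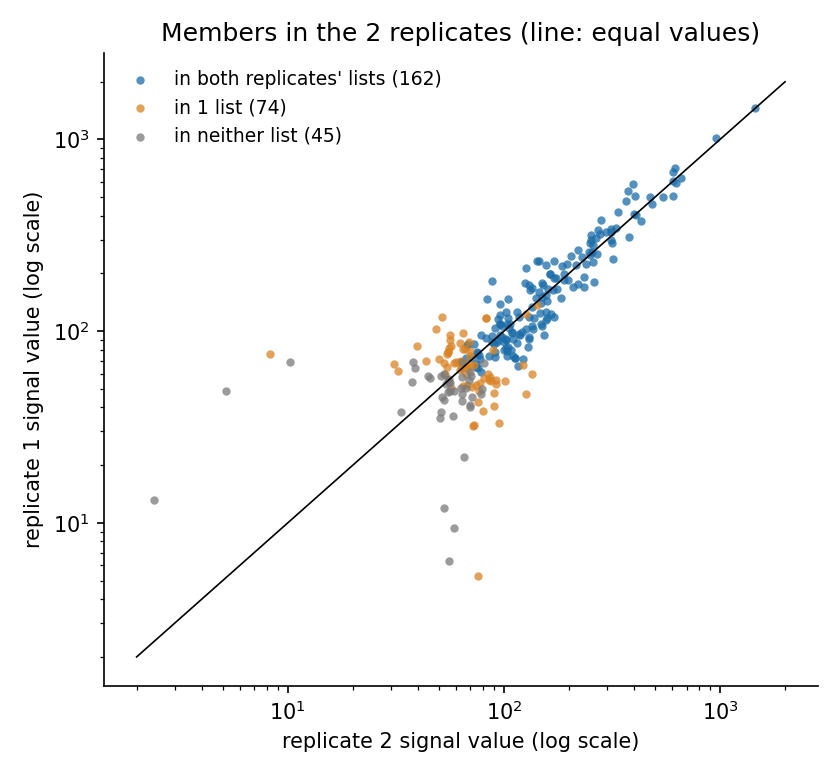
Signal value of members in replicate 1 against replicate 2, on log scales, for those with a value in both (279 have one in replicate 1 and 278 in replicate 2), coloured by presence in the replicates' own thresholded lists (of all members, 162 in both, 74 in 1 and 45 in neither); the line marks equal values. Members with high signals lie near the line, and members in neither list are at low values.

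The strongest member, at chrII:12919147-12919550 of ce11 with its summit at 12919353, lay between F58G1.2 and wago-4, which encodes an Argonaute protein of the small RNA pathways. It had a signal of 2907 in the pooled list, 1453 in replicate 1 and 1450.3 in replicate 2. The summit was 343 bp upstream of F58G1.2 and 198 bp upstream of wago-4. The next, at chrIV:9147001-9147333, lay between rpb-12, which encodes a small subunit of the RNA polymerases, and aly-2, which encodes a homologue of an mRNA export factor. It had a signal of 1957 in the pooled list, 1016 in replicate 1 and 960.0 in replicate 2, and the 5' ends were 304 and 295 bp away. The window of daf-10, on the minus strand, also covered that summit. The replicate values of both members lay close together, with ratios of 1.002 and 1.06.

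Further members of the 25 strongest lay between genes with known roles. cic-1/strm-1, which pairs cyclin C of the Mediator kinase module with a sterol methyltransferase, had a signal of 1272 in the pooled list, 627 in replicate 1 and 663 in replicate 2. klp-15/ctnb-1, whose minus-strand gene encodes a kinesin, had a signal of 1259.9 in the pooled list, 605 in replicate 1 and 603 in replicate 2. F15D3.6/timm-23, with a subunit of the mitochondrial inner membrane import channel, had a signal of 1212 in the pooled list, 594 in replicate 1 and 624 in replicate 2. The phosphatase 5 gene pph-5 shared with Y39B6A.3 a member with a signal of 1134 in the pooled list, 508 in replicate 1 and 606 in replicate 2. Both replicates had each of these 4 members in their own lists.

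Of the members next in rank, Y38E10A.33/cox-10, with the gene of a haem A synthesis enzyme, had a signal of 1052 in the pooled list, 502 in replicate 1 and 544 in replicate 2. rpl-28/mrpl-49 joins a cytosolic and a mitochondrial ribosomal protein gene, and it had a signal of 994 in the pooled list, 585 in replicate 1 and 396 in replicate 2, a ratio of 1.48 between replicates. ric-19/pmlr-1 had a signal of 971 in the pooled list, 463 in replicate 1 and 486 in replicate 2. ddx-46/F53H1.4, with a splicing helicase gene, had a signal of 929.8 in the pooled list, 541 in replicate 1 and 373 in replicate 2. The 2 with the largest differences here, rpl-28/mrpl-49 and ddx-46/F53H1.4, were both higher in replicate 1.

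The others of the 25 strongest, with pooled signals of 645 to 1328 and replicate values in brackets, were as follows. R04F11.5/R04F11.2 had 1328 (707 and 618), dxbp-1/Y52B11A.10 had 920.1 (505 and 406) and farl-11/rpl-33 had 840.4 (478 and 366). eea-1/gut-2, which pairs an early endosome protein with an LSm protein, had 809 (375 and 429.7), eif-3.E/B0511.17, with a subunit of translation initiation factor 3, had 802 (403 and 409) and rps-27/picd-1 had 743 (418 and 337). marb-1/F35G2.3 had 699.8 (308 and 378) and F53F8.5/F53F8.6 682 (345 and 332). K09H11.9/rga-3 had 662 (381 and 282) and cyn-15/nyn-2, with a cyclophilin, 656 (341 and 314). cox-16/syp-2 had 647 (330.0 and 312), with the summit 94 bp downstream of the 5' end of syp-2, a gene of the synaptonemal complex, and it was the only one of the 25 not between its 5' ends. The gene pas-4 of the proteasome core and the RNA polymerase II gene rpb-3 shared a member with 645 (327 and 297), 139 and 138 bp from their 5' ends.

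Most members lay inside the interval. The summit was between the nearest facing 5' ends in 246 of 281 members (87.5%), just downstream of the plus-strand 5' end in 23 and of the minus-strand 5' end in 12. The interval had a median length of 487 bp (quartiles 302 and 755). The summit was a median of 140 bp from the nearer 5' end and 344 bp from the farther. It was nearer the plus-strand gene in 158 members and nearer the minus-strand gene in 123. Outside protein-coding genes lay 242 summits, in untranslated parts of their exons 19, in coding parts 12 and in introns 8. The rule limits how far a summit can be from either 5' end, so distances describe the members within that limit. Members with a midpoint summit were a median of 141 bp from the nearer 5' end and 84.5% lay between the ends, against 137 bp and 93.6% for the 94 others.

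Each of the 246 intervals was divided into 5 equal parts from the minus-strand to the plus-strand 5' end. The counts were 29, 47, 70, 70 and 30, highest in the middle part and the next toward the plus-strand 5' end. In intervals over 1000 bp the rule leaves out summits near either end, so central positions are partly set by it. The 23 members downstream of a plus-strand 5' end had a median signal of 90.4, the 12 downstream of a minus-strand 5' end 153, and those between the ends 187. Of the 14 members under a signal of 50, all overlapped a stronger listed peak, and the 267 other members had signals of 58.3 or more. Of those 14, 9 were downstream of a plus-strand 5' end and 5 between the ends. Without them the medians were 151 for the 14 left downstream of a plus-strand 5' end, 153 downstream of a minus-strand 5' end and 192 between the ends.

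Pairs of short to middle spacing carried a member more often than widely spaced ones. Counting every minus-strand and plus-strand gene with overlapping windows, there were 3072 pairs, and 283 had a member (9.21%). The share was 18.0% of 555 pairs with over 250 and up to 500 bp between 5' ends (14.9 to 21.5), 10.9% of 376 pairs with 0 to 250 bp (7.94 to 14.5), 12.1% of 863 pairs with over 500 and up to 1000 bp (9.95 to 14.4) and 3.02% of 1226 pairs with over 1000 and up to 2000 bp (2.13 to 4.14). The shared window of a pair is longest at middle spacing and shorter for both the closest and the most widely spaced pairs. Summed over pairs it was 0.212, 0.427, 0.918 and 0.622 Mb, from the shortest to the longest spacing. Per Mb of shared window there were 193, 234, 113 and 59.5 pairs with a member, from the shortest to the longest spacing. Of 52 pairs with overlapping 5' ends 1 had a member. All 190 pairs on X were without one, and 9.82% of the 2882 autosomal pairs had one.

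**Figure D4:**
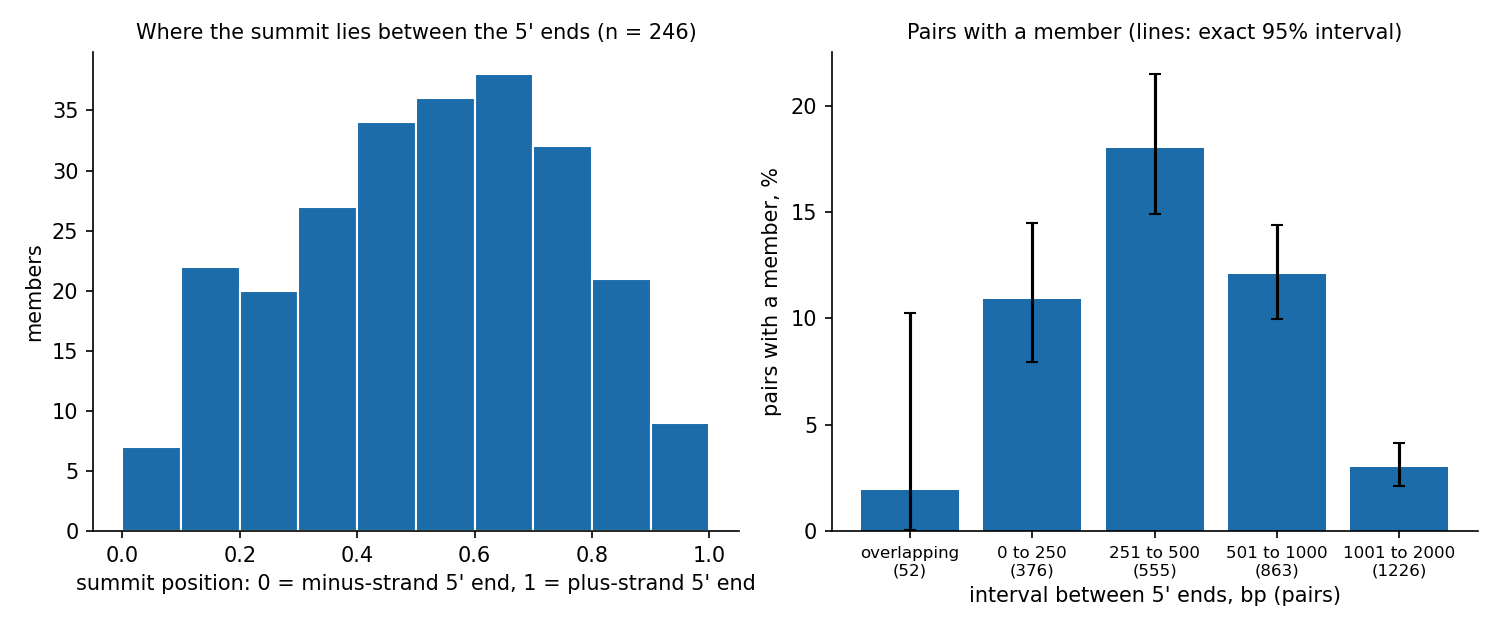
Left, number of members by position of the summit in the interval between facing 5' ends, from the minus-strand 5' end (0) to the plus-strand 5' end (1), for the 246 members with the summit between them. Right, share of divergent gene pairs with a member by length of the interval, with exact 95% intervals as lines and the number of pairs in brackets; the share is highest in the class that ends at 500 bp (18.0%).

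Members of closely and widely spaced pairs had similar signals. Median signals were 190.2 for the 44 members with intervals of 0 to 250 bp, 163 for members in the class up to 500 bp, 196 for the 104 up to 1000 bp and 178 for the 31 up to 2000 bp. Both replicates' lists held 56.4% to 59.1% of the members in each of these classes. The shortest intervals with the summit inside were those of F01F1.11/F01F1.3 (61 bp, signal 175), K07B1.7/try-5 (82 bp, 394) and ears-2/uncp-18 (92 bp, 131). The gene try-5 encodes a serine protease and ears-2 a glutamyl-tRNA synthetase. The longest were those of egrh-2/lep-2 (1831 bp, 290.3) and hcp-4/pgk-1 (1603 bp, 375), where hcp-4 encodes the CENP-C protein of the kinetochore and pgk-1 a glycolytic kinase.

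The 281 members touched the windows of 548 genes, 262 members with 2 genes each and 19 with 3, and none with 4 or more. By nearest genes they formed 265 pairs, of which 16 had 2 members. In 14 of those the second peak was weak (signals of 2.1 to 45.1) and overlapped the stronger one. Near-equal members were seen for W03C9.5/mex-1 (363 and 250.1) and ecps-1/atx-2 (254 and 198). The 3 weakest members, at rab-18/kbp-4 (2.1), F31D4.2/fkb-6 (2.7) and zhp-2/lotr-1 (2.7), were second peaks of this kind, and none of them was in both replicates' lists.

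At the limits of the rule, the members nearest 1000 bp upstream were R107.5/cls-2 (summit 1000 bp upstream of cls-2, signal 222), nstp-10/ehbp-1 (999 bp upstream of ehbp-1, 233) and C02F5.10/knl-1 (992 bp upstream of C02F5.10, 129.5). Just outside were peaks at panl-2 (1008 bp from F31E3.12, 249.9), herd-1 (1014 bp from Y111B2A.1, 115.1) and W08A12.2 (1022 bp from unc-132, 140.4). Those nearest 200 bp downstream were nstp-10/ehbp-1 (191 bp inside nstp-10), K07B1.7/try-5 (177 bp inside try-5, signal 3.2) and Y50D4A.4/wrb-1 (147 bp inside wrb-1, 386). Beyond that limit were peaks 236 bp inside T28D9.1 (85.3), 250 bp inside spd-5 (309) and 260 bp inside rfl-1 (786).

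Cytosolic ribosomal protein genes and several other gene groups had a member in larger shares than divergent genes as a whole. Of the 5656 protein-coding genes in divergent windows, 9.69% had a member in theirs, and the counts of each gene list are read against that share. The lists are name patterns chosen with earlier results of these data known, and genes that share a member are counted separately. The exact 95% interval of the share lay above 9.69% for 7 of 23 lists, below it for 3 and included it for 13. This is a description of counts and no test between lists. The lists above it were cytosolic ribosomal proteins, oxidative phosphorylation, chaperones and prolyl isomerases, and cell cycle and DNA replication. Also above it were RNA polymerase, TAF and Mediator, tubulin, kinesin and dynein, and chromatin and DREAM. Larger shares in these 7 lists were not particular to members. Of all genes in each of them, 6.74% (chaperones and prolyl isomerases) to 16.05% (cytosolic ribosomal proteins) had a one-sided peak. The share over all protein-coding genes was 3.13%. Of the cytosolic ribosomal protein genes, 22 of 53 in divergent windows had one (41.5%, 28.1 to 55.9). Their median signal was 239.6, beside 184 over all genes with a member. The strongest were rpl-28 with 994 (585 and 396), rpl-33 with 840.4 (478 and 366) and rps-27 with 743 (418 and 337), replicate values in brackets. The summits lay 606 bp from rps-27, 394 bp from rpl-33 and 344 bp from rpl-28, so in each case the partner gene's 5' end was nearer. Further ribosomal members included rpl-39/rps-30, where both genes are ribosomal, with 135 (45.4 and 71.3).

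Other genes of translation followed with lower shares, and the intervals of both lists included the background. Mitochondrial ribosomal protein genes had a member in 6 of 30 (20%), led by mrpl-49, mrps-7 with 552 (299 and 252) and mrpl-40 with 464 (266 and 220.3). Translation factors and tRNA synthetases had 7 of 38 (18.4%), led by eif-3.E, eif-6 with 419 (231 and 171) and eef-1A.1 with 193 (74.4 and 111), the last encoding an elongation factor. The member of eif-6 was shared with the proteasome gene pbs-2, and that of eef-1A.1 with rfc-4, a clamp loader gene of DNA replication.

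Genes of transcription, splicing and RNA silencing were among those with a member. RNA polymerase, TAF and Mediator genes had 7 of 23 (30.4%, 13.2 to 52.9), led by rpb-12, cic-1 and rpb-3. Splicing genes had 6 of 29 (20.7%, 7.99 to 39.7, which includes the background), led by ddx-46, prp-8 with 475 (245 and 229) and prp-19 with 388 (171 and 209.9). The gene prp-8 encodes a core protein of the spliceosome. Argonaute and small RNA pathway genes had 5 of 21 (23.8%, 8.22 to 47.2, which includes the background). They were led by wago-4, by alg-5 with 296 (151 and 149.5) and by nrde-2 with 283 (164 and 132). The member of alg-5 lies between his-67 and his-68. No gene of the mRNA capping and decapping list had one (0 of 5 in divergent windows), while 4 of all 13 genes in the list had a one-sided peak.

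Mitochondrial and protein-folding genes were also represented. Oxidative phosphorylation genes had a member in 12 of 41 (29.3%), led by cox-10, cox-16 and nuo-6 with 509.5 (260.0 and 257), a subunit of complex I. Genes matched by the mitochondrial import name pattern had 2 of 5 (5.27 to 85.3, which includes the background). These were timm-23, and tim-1 with 142 (85.6 and 73.1). The name pattern alone placed tim-1 in this list, which does not make it an import gene. Chaperones and prolyl isomerases had 10 of 43 (23.3%), led by dnj-22, cyn-15 and cct-8 with 622 (300.3 and 314), a subunit of the cytosolic chaperonin. Proteasome genes had 5 of 24 (20.8%, 7.13 to 42.2, which includes the background). They were led by pas-4, pbs-2 with 419 (231 and 171) and rpt-2 with 378 (222 and 156).

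Genes of the cell cycle, the cytoskeleton and chromatin had members too. Tubulin, kinesin and dynein genes had 7 of 15 (46.7%), led by klp-15, tbb-1 with 288 (143 and 158) and klp-16 with 234.6 (138 and 96.2). Cell cycle and DNA replication genes had 9 of 40 (22.5%), led by cdt-2 with 392 (176 and 220.4) and by cyb-1 and orc-5, a cyclin B gene and a gene of the origin recognition complex that share 1 member with 341 (190.1 and 169.8). The name pattern alone placed cdc-37, with 123, among these 9, which does not make it a cell cycle gene. The interval of this list, 10.8 to 38.5, began close to the background, so its place above it may rest on that gene. Chromatin and DREAM genes had 8 of 25 (32%), led by set-21 with 327 (148 and 184), set-16 with 299 (154 and 158) and lin-54 with 271 (124 and 147), where lin-54 encodes a DNA-binding subunit of DREAM. Nuclear pore and transport genes had 4 of 25 (16%, 4.54 to 36.1, which includes the background). They were led by npp-3 with 280.4 (134 and 135), ran-1 with 161 (84.3 and 67.6) and npp-7 with 153 (73.9 and 85.3). Histone genes had 6 of 67 (8.96%), near the background. Among their members were those at his-67/his-68 with 296 (151 and 149.5), at his-63/his-64 with 182 (72.4 and 112) and at htz-1 with 113 (47.0 and 64.2), the gene of the variant H2A.Z, and the copies of each core histone gene are nearly identical, so reads may be split between them.

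Few genes of the large families had a member. The 3 lists whose interval lay below 9.69% were the chemoreceptors with 3 of 297 (1.01%, 0.209 to 2.92), the F-box, MATH and BATH genes with 3 of 120 (2.5%, 0.519 to 7.13) and the C-type lectins with 2 of 81 (2.47%, 0.300 to 8.64). Intervals that included the background were those of 2 of 46 nuclear hormone receptor genes (4.35%), 1 of 39 collagen genes, 1 of 48 detoxification genes and 0 of 17 neuropeptide and insulin genes. Some of these genes shared their member with a gene of another list. The strongest, bath-42 with 475 (245 and 229), was 677 bp from the summit and prp-8 was 313 bp from it. For bath-41 the values were 389 (218 and 186) and for fbxc-44 96.0 (54.5 and 37.6). The nuclear hormone receptor genes were nhr-142 with 127 (69.3 and 60) and nhr-47 with 126 (57.3 and 81.1), and nhr-47 shared its member with the chaperone gene dnj-19. C-type lectin members were at clec-104 with 193 (71.7 and 123) and clec-87 with 137 (66.3 and 69.6), the collagen member at col-71 with 251.2 (119 and 131) and the detoxification member at ugt-12 with 273 (114.7 and 157).

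**Figure D5:**
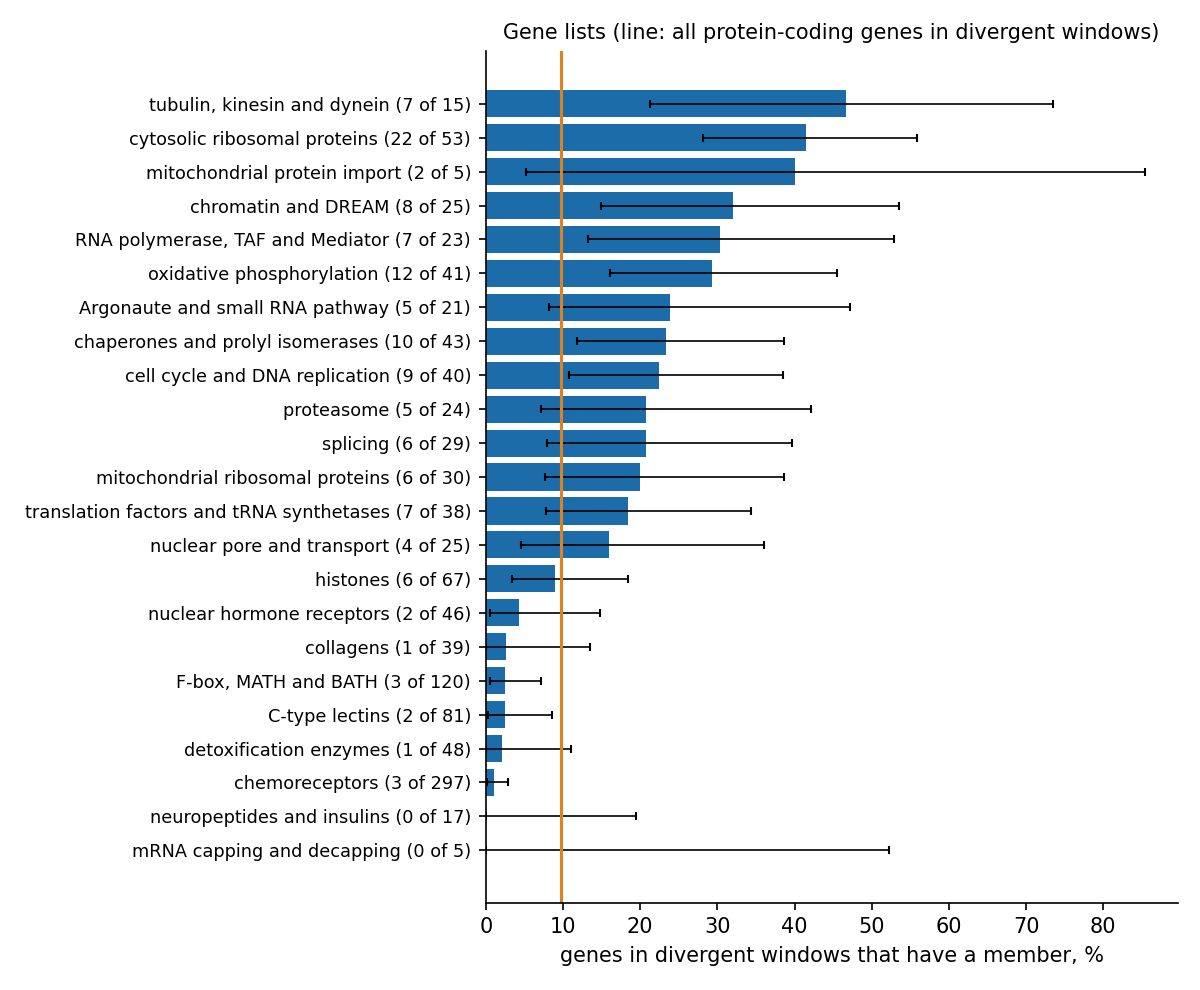
Share of the genes in divergent windows that had a member, for each gene list, with exact 95% intervals as black lines and counts in brackets; the orange line is the share over all protein-coding genes in divergent windows (9.69%). Cytosolic ribosomal protein genes (41.5%) and tubulin, kinesin and dynein genes (46.7%) lie above the line, and chemoreceptor genes (1.01%) below it.

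In 114 of 281 members at least 1 gene belonged to a list, and in 19 members genes of both strands did. The shares over all divergent pairs were not computed, so neither count shows whether listed genes are commoner at members. Among the 19 were pas-4/rpb-3 and pbs-2/eif-6, lin-54 with rpl-12 (signal 271), set-21 with rpl-7A (327) and klp-16 with smn-1 (234.6), the smn-1 gene encoding a protein of snRNP assembly. The pair nuo-1 and rpl-36.A (227) and the pair hsp-110 and rpn-3 (200.0) were others. Genes of other kinds also had windows at members. At least 1 small or non-coding RNA gene had its window at 51 members (18.15%). There were 31 at ncRNA genes, 12 at snoRNA genes, 4 at piRNA genes, 3 each at snRNA and miRNA genes and 1 at a lincRNA gene. The share over all peaks was not computed, so these counts do not show whether such genes are commoner at members. Which of the genes that share a summit the signal belongs to cannot be told apart.

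The tagged gene itself, on the minus strand of chromosome III with its 5' end at 2116897, lies in a divergent window. Its window held 1 candidate peak, with a signal of 77.3, which was not in the thresholded list. No pattern match lay at that candidate, and no member belonged to Y48G9A.11.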

How the data were processed

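Anti-GFP ChIP-seq of tagged L4 larvae was analysed for 2 biological replicates of 1 group. The authors deposited peak lists on ce11, for each replicate and for both together. For every peak the authors deposited a summit and a signal value, a score from their caller made against a control. In the authors' ranked lists the irreproducible discovery rate (IDR) is written as its −log10, and the lowest listed score, 830, stands for an IDR of 0.01. Neither aligner nor peak caller is named in the labels or headers (not given in the sources used here). No read counts were used, so depth is unknown.

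Genes were those of Ensembl release 115 of WBcel235 (19973 protein-coding), where symbols given to several genes were kept apart by sequence name. Classes, overlaps of at least 1 bp and words were computed in Python 3.11.15 with numpy 2.4.6, pandas 2.3.3 and scipy 1.17.1, tested on simulated data; figures used matplotlib 3.10.9. A member's replicate value is that of the overlapping ranked peak with the nearest summit. For the 14 members that overlap a stronger listed peak, it can be the value of that stronger peak. Both members of hcp-4/pgk-1, with pooled signals of 375 and 20.0, have 198 and 164 and count in both replicates' lists. Such values are included in the medians, shares and plots of the replicates. The 95% intervals are Clopper-Pearson (exact); they take peaks to be independent and reflect counting error alone. No test between conditions is possible with 1 group, and differences are described.

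Members and gene lists were chosen with earlier results of these data known. The named pairs are the 25 strongest, the 3 strongest of each list (chemoreceptors as counts), the extremes of replicate ratio, signal, spacing and window limits, and the tagged gene; printed sequences leave out chromosome I. The 10-letter pattern and the narrowed chemoreceptor name pattern were chosen after seeing the data. W03C9.5/mex-1 and ecps-1/atx-2, and the pairs with listed genes on both strands, were also named after their values were seen.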

Additional observations from a re-analysis of the deposited data

How the results depend on the processing

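The number of members stayed within 1.5 times of 281 under all 10 alternatives, from 195 to 419, which a window of 2000 bp gave. The ratio of median signals, 1.28, was 1.11 in replicate 1's list and 1.25 in replicate 2's, 1.17 with a window of 2000 bp, and, chosen after seeing the data, 1.07 among peaks in both replicates' lists and 1.14 without peaks that hold the pattern. It stayed above 1 in all of these. The share in both replicates' lists, 57.7%, was 80.2% in the stronger 50% of the list and 46.6% with a reciprocal overlap of 50%. The median distance to the nearer 5' end, 140.0 bp, was 140.0 to 149 bp in the replicates' lists, 122 bp with a window of 500 bp and 156 bp with 2000 bp. The ratio of density to one-sided windows, 4.04, was 4.80 to 5.09 in the replicates' lists, 5.37 in the stronger 50%, 5.49 with 500 bp and 3.32 with 2000 bp. The share of candidates listed, 13.6%, was 22.4% with 500 bp and 8.19% with 2000 bp. The share of pairs with a member, 9.21%, was 6.54% to 7.13% in the replicates' lists, 6.74% in the stronger 50% and 10.6% with 500 bp. The G+C excess over the flanks, 10.3 percentage points, was 8.08 to 9.64 in the replicates' lists and 4.62 in 200 bp around the summit. The pattern, at 23.1% of members, was at 29.2% in each replicate's list and 32.0% in the stronger 50%. TTTCAG, at 10.7%, was at 25.6% in 200 bp around the summit, a window that holds more letters. The cause of these changes was not tested. With 2 replicates, 1 group and no read depth, no difference here has a test. No paired analysis was possible because there is 1 group.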
